A study of Mus musculus with 22 samples.

Results

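miR-138 is a microRNA (miRNA) that the mouse genome encodes at 2 separate loci. Its products appear under 3 of the 1966 mature miRNA names counted in round spermatids (RS), postmeiotic male germ cells. The 3 names are miR-138-5p, the 5p product that both hairpins share, miR-138-1-3p, the 3p product of the hairpin Mir138-1, and miR-138-2-3p, the 3p product of the hairpin Mir138-2. The members were taken by name and were selected on the level of miR-138-5p, which was already known to be lower in both mutants in these data. Mutant levels of the 3 products against WT are therefore given as a description, without a test.

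RS were isolated from the testes of WT mice and of mice with 1 of 2 changes in GRTH (DDX25), a testis-specific DEAD-box RNA helicase. GRTH-KO mice lack the helicase. GRTH-KI mice carry a changed GRTH with an arginine-to-histidine substitution and lack its phosphorylated form. In both mutants spermatids stop developing at the round stage, and the males are sterile. The mice were 75 to 85 days old. KO (n = 5) was profiled with WT (n = 5) in batch 1, and KI (n = 6) with other WT samples (n = 6) in batch 2. A batch is the experimental batch named in the labels, while the paper's methods number the batches the other way round. The labels do not say whether the samples of a group came from separate animals, so the errors and p-values measure the spread between these samples. Total counts per library were 870913 to 1081333 in WT and 559957 to 881323 in KO of batch 1, and 2067322 to 3239357 in WT and 2107461 to 3101145 in KI of batch 2.

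A miRNA gene is transcribed into a long precursor, from which the nuclease Drosha cuts a hairpin. Dicer removes the loop and leaves a duplex of a 5p and a 3p strand. One strand is usually kept in an Argonaute protein, where bases 2 to 8, the seed, pair with target mRNAs, and the other strand is mostly degraded. miR-138-5p is best known from the brain, where it is enriched in neurons and acts in dendrites. Because hairpins at different loci can give the same guide strand, only the less abundant strand shows which locus was processed.

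The mature sequences are shown because they decide which reads can be assigned to a locus. They are RefSeq sequences on GRCm38.p6, written 5′ to 3′ with the seed in capitals.
mmu-miR-138-5p: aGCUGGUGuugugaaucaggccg
mmu-miR-138-2-3p: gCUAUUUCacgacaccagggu
mmu-miR-138-1-3p: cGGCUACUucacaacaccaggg
Within the 20 bases that the 3p products share, 18 were identical. The differences were U5C and G11A, each written as the base of miR-138-2-3p, its position counted from 1 at the 5′ end of miR-138-2-3p, and the base of miR-138-1-3p. The 3p products are shifted against each other by 2 bases, so their seeds differ. Of the 1675 names in the table with a sequence, 0 others had the seed of any of the 3 miR-138 products.

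The hairpins show how the loci differ outside the shared strand. They are written 5′ to 3′ from RefSeq on GRCm38.p6, with the mature 5p and 3p products in capitals.
Mir138-1: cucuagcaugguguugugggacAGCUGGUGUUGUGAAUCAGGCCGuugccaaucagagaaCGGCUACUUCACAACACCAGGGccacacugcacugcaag
Mir138-2: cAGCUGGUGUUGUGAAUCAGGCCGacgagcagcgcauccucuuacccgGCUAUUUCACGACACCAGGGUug
The 5p product was identical in both. The stretch between the arms was 15 bases in Mir138-1 and 24 bases in Mir138-2, and the annotated hairpins were 99 and 71 bases long.

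Mir138-1 lies on the plus strand of chromosome 9 at 122682876 to 122682974 (GRCm38), inside an exon of Gm47135, a transcribed unprocessed pseudogene. Its nearest protein-coding genes were Topaz1 at 64.4 kb and Abhd5 at 301 kb. Mir138-2 lies on the plus strand of chromosome 8 at 94324311 to 94324381, inside an exon of the long intergenic non-coding RNA gene C78859. Its nearest protein-coding genes were Slc12a3 at 4.82 kb and Nup93 at 7.08 kb. Neither locus had a detected miRNA close by. The nearest other miRNAs of the table were miR-8110 at 5300 kb and miR-7072-5p at 181 kb on chromosome 8, both with 0 counts, and miR-8106 at 409 kb on chromosome 9, with 6 counts over the 22 libraries.

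miR-138-5p was of middle abundance in WT RS. It ranked 118 of 334 miRNAs tested in batch 1 and 104 of 387 in batch 2, and it held 0.0348 to 0.0536% of the counts of a WT library in batch 1 and 0.0437 to 0.0509% in batch 2. It had 13385 counts over the 22 libraries, and 119 to 1558 in a library. Because its reads align equally well to both loci, a read may have been counted at each. Its count was even in 17 of 22 libraries (77.3%), while values of at least 100 counts were even in 50.7% for names with 1 locus and in 69.1% for the other names with 2 loci. The number of reads behind the counts may thus be lower than the counts, and its counts cannot be divided between the loci.

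In every KO library miR-138-5p was below every WT library of its batch. Levels are given in CPM, counts brought to one library total with the TMM factors of edgeR within a batch. The 5 WT libraries of batch 1 were at 390, 378, 556, 472 and 505 CPM, with a mean of 460 ± 75.8 (SD, n = 5). The 5 KO libraries were at 157, 143, 285, 258 and 228 CPM, with a mean of 214 ± 62.2 (SD, n = 5). The lowest WT library lay above the highest KO library, so the groups did not overlap. The log2 fold change was -1.11 (SE 0.19), or 0.463 of WT with a 95% interval of 0.357 to 0.601. The interval is a normal approximation from the SE, which is somewhat narrow for groups this small. KO replicates 1 and 2 were the lowest of their group and also had the largest totals of the KO libraries. The relative spread was wider in KO, where the SD was 29.0% of the mean, than in WT, where it was 16.5%.

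In batch 2 the 6 WT libraries ranged from 453 to 515 CPM with a median of 504, and their mean was 493 ± 24.6 (SD, n = 6). The 6 KI libraries ranged from 167 to 247 CPM with a median of 191, and their mean was 195 ± 28.1 (SD, n = 6). These groups did not overlap either, and KI replicate 2 was the highest of its group. The fold was 0.395 of WT, with a 95% interval of 0.348 to 0.448 by the same normal approximation, for a log2 fold change of -1.34 (SE 0.09). The log2 fold change in KI minus that in KO was -0.23 (SE 0.21), about as large as its error. In bulk RNA, fewer cells that hold a miRNA and less of it per cell cannot be told apart.

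**Figure D1:**
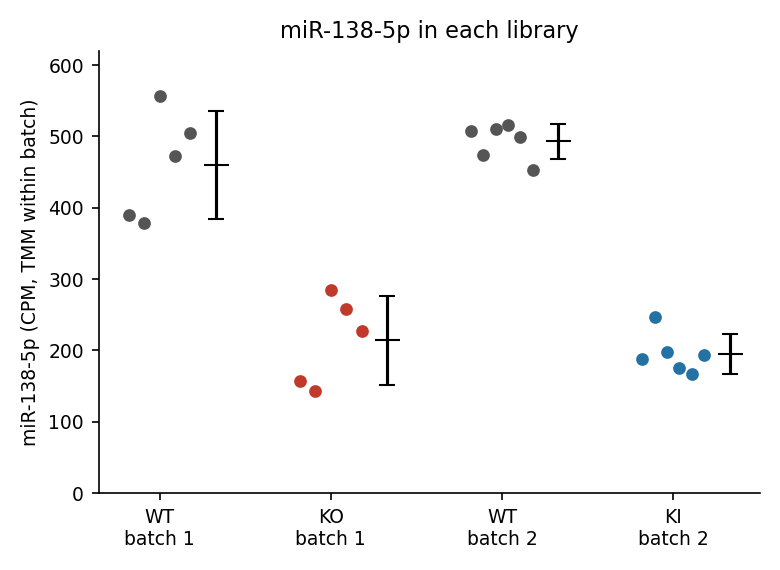
miR-138-5p in each library, in CPM scaled by TMM within a batch (vertical axis, starting at 0), by group (horizontal axis). Points are libraries, and the black line with bars is the mean ± SD of the group. The KO libraries (143 to 285 CPM) and the KI libraries (167 to 247 CPM) all lie below the WT libraries of their batch (378 to 556 and 453 to 515 CPM).

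Among the miRNAs tested, miR-138-5p was 4th from the lowest log2 fold change in KO and 2nd in KI. In KO it stood between miR-140-3p at -1.16 and miR-32-5p at -1.09. In KI it stood between miR-3068-3p at -1.71 and miR-1198-5p at -1.15. A fall of more than 1 on the log2 scale was called for 5 miRNAs in KO and 5 in KI, each count including miR-138-5p. Its rank and its place in these counts follow largely from its selection and are no test of it. As background, 20.7% of the 334 miRNAs tested in KO and 19.9% of the 387 tested in KI were called lower at an edgeR adjusted p under 0.1, and 21.3% and 18.1% were called higher. Mutant libraries all lay below WT for 11.4% in KO and for 9.04% in KI. The median log2 fold change over all miRNAs tested was 0.01 in KO and 0.00 in KI. Scaling by library size only moved it to 0.13 in KO and 0.09 in KI and changed the split of calls from 69 lower and 71 higher to 44 and 101 in KO, and from 77 and 70 to 53 and 96 in KI. The log2 fold change of miR-138-5p was then -0.996 in KO and -1.26 in KI.

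The 3p products were far rarer, and they are the only counts that belong to 1 locus. A read was taken to span a whole mature miRNA, which was not checked, so counts of different products were compared without dividing by length. miR-138-2-3p had 77 counts in 21 of the 22 libraries, and miR-138-1-3p had 9 counts in 5 libraries. Both were too rare to be tested with the other miRNAs. Together they made up 0.638% of all miR-138 counts, with an exact binomial 95% interval of 0.511 to 0.788%. If reads of miR-138-5p were counted at both loci, this percentage is too low. Intervals on counts here cover counting error only.

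miR-138-2-3p from chromosome 8 was found in every group. WT libraries of batch 1 had 2, 5, 4, 5 and 1 counts and KO libraries 3, 2, 2, 3 and 0. In batch 2 the WT libraries had 1 to 9 counts with a sum of 24, and the KI libraries 3 to 7 counts with a sum of 26. The mutant and WT libraries overlapped in both batches. Pooled over the libraries of a group, its level was 3.61 CPM in WT and 2.74 CPM in KO of batch 1, and 1.60 CPM in WT and 1.67 CPM in KI of batch 2. Most single libraries were at or near the floor of 3 counts, which is 0.926 CPM in the deepest library and 5.36 CPM in the shallowest.

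The ratio of KO over WT for miR-138-2-3p was 0.757, with a 95% counting interval of 0.310 to 1.75. For miR-138-5p the ratio of the pooled counts was 0.448 (0.412 to 0.487), inside that interval. In KO, then, a change of miR-138-2-3p as large as that of miR-138-5p and no change at all were both within counting error. The KI ratio of miR-138-2-3p was 1.04 (0.575 to 1.90). For miR-138-5p it was 0.394 (0.378 to 0.411), below the lower bound for miR-138-2-3p. With each library left out in turn, the ratio of miR-138-2-3p was 0.632 to 0.908 in KO and 0.929 to 1.37 in KI, where the highest value came without WT replicate 6, the library with 9 counts. These intervals do not hold the spread between samples, and those of miR-138-5p are too narrow if its reads were counted at both loci. The difference between the products was not tested.

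**Figure D2:**
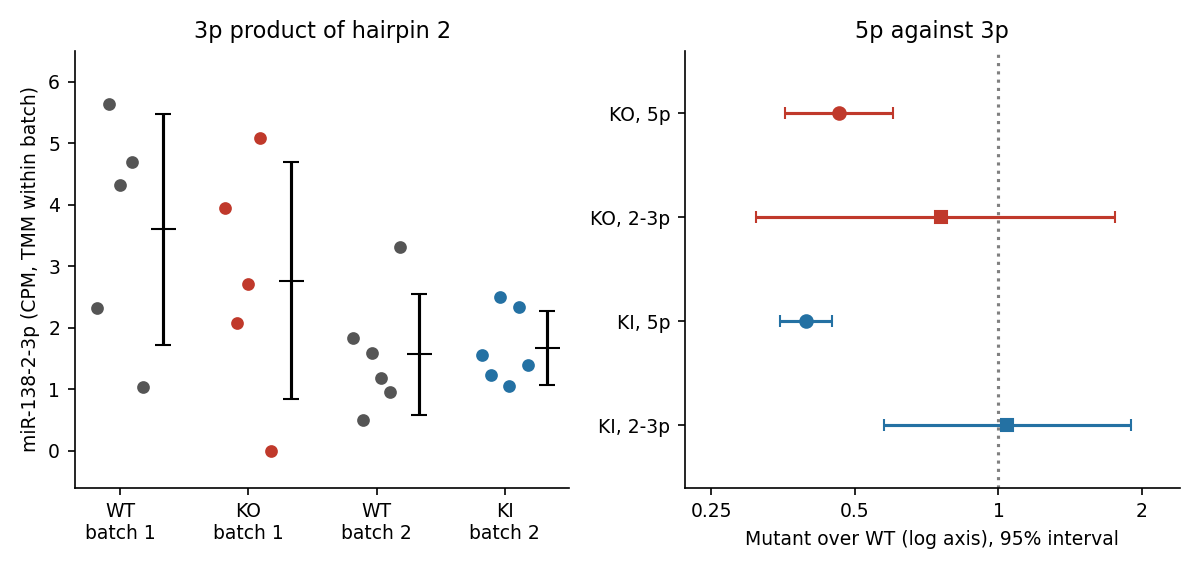
Left, miR-138-2-3p in each library in CPM scaled by TMM within a batch, by group, with the mean ± SD in black. Right, the ratio of mutant over WT on a log axis with 95% intervals. For miR-138-5p (circles) they come from the edgeR fit by normal approximation and hold the spread between libraries. For miR-138-2-3p (squares) they hold counting error only. The interval of miR-138-2-3p reaches from 0.310 to 1.75 in KO and from 0.575 to 1.90 in KI, and both include 1.

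miR-138-1-3p from chromosome 9 was seen in WT libraries only, on 9 counts of which 4 came from 1 library. It had 0, 0, 4, 1 and 1 counts in WT of batch 1 and 0, 0, 1, 0, 2 and 0 in WT of batch 2. KO and KI each had 0 counts in all libraries, where a floor of 3 counts over a group is 0.821 CPM for the KO libraries and 0.192 CPM for the KI libraries, and the upper bound of the exact Poisson 95% interval for 0 counts is 1.01 CPM and 0.236 CPM. The pooled WT level was 1.28 CPM in batch 1 and 0.200 CPM in batch 2. The upper 95% bound on the ratio to WT was 1.09 in KO and 2.33 in KI. An unchanged level was thus within counting error in each mutant taken alone, and the mutants were not tested together.

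Hairpin 2 gave most of the 3p counts. Its share was 89.5% over all libraries, with an exact binomial 95% interval of 81.1 to 95.1%. By group it was 73.9% (51.6 to 89.8%; 17 of 23 counts) in WT and 100% (69.2 to 100%; 10 of 10) in KO of batch 1. In batch 2 it was 88.9% (70.8 to 97.6%; 24 of 27) in WT and 100% (86.8 to 100%; 26 of 26) in KI. All 4 intervals overlap one another, but a difference in the share was not tested. The 9 counts of hairpin 1 all came from WT libraries, 4 of them from WT replicate 3 of batch 1. How many of the 5p strands each hairpin gave was not measured by this share.

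The percentage of miR-138 counts on a 3p strand was also taken per library. In batch 1 the mean was 1.04 ± 0.510% (SD, n = 5) for WT samples, while KO samples had 1.35 ± 0.944% (SD, n = 5). In batch 2 WT samples had 0.355 ± 0.208% (SD, n = 6), and the mean of KI samples was 0.876 ± 0.360% (SD, n = 6). WT of batch 1 ranged from 0.410 to 1.53% and WT of batch 2 from 0.106 to 0.725%, so these groups overlapped. A two-sided exact permutation test between the WT groups, chosen after the values were seen, gave p 0.0260, where the smallest possible p is 0.00433. The p was 0.0571 without WT replicate 2, 3 or 4 of batch 1. For each count of miR-138-2-3p there were 309 counts of miR-138-5p in WT and 117 in KI of batch 2, and 128 in WT and 75.7 in KO of batch 1. These ratios and the percentages include the counts of miR-138-5p, on which the members were selected. A difference between mutant and WT in them is therefore no separate result.

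miR-138-5p itself was higher in WT of batch 2 than in WT of batch 1, and this comparison was not used to choose it. On a scale common to both WT groups, the libraries of batch 1 were at 341, 331, 480, 365 and 435 CPM and those of batch 2 at 487 to 550 CPM. The groups did not overlap, as for 17% of all miRNAs tested in this direction, with means of 390 ± 64.6 (SD, n = 5) and 532 ± 23.9 (SD, n = 6). The log2 difference was 0.44 (SE 0.10, edgeR adjusted p 0.00170), but with library size only it was 0.11 (SE 0.10, edgeR adjusted p 0.376), where the median over all miRNAs shifted from -0.01 to -0.34 and the calls from 114 lower and 103 higher to 193 and 47. Batch differences were common, since 56.7% of the 383 miRNAs tested between the WT groups were called, and 26.9% of the 383 were called higher in batch 2. KO and KI levels were therefore each read against the WT of the same batch. What the batches differ in beyond their labels cannot be told apart here.

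Other miRNAs made from several hairpins were called in both directions. The table held 27 other names with 2 or more loci whose opposite strand is named by hairpin, as with miR-138. In KO, 24 of them were tested, and 7 were lower, 6 higher and 11 not called (54.2% called, against 41.9% of all miRNAs tested). In KI, 25 were tested, and 5 were lower, 5 higher and 15 not called (40.0%, against 38% of all). Their median log2 fold change was -0.02 in KO and -0.01 in KI, and 0 of them had a fold change below that of miR-138-5p in either mutant. That order is largely set by the choice of miR-138-5p, which was selected for being lower in both mutants. let-7a-5p, miR-103-3p and miR-128-3p, 3 in all, were lower in both. With library size only, 2 were lower and 6 higher in KO and 3 lower and 6 higher in KI, and of these 3 miRNAs let-7a-5p was then called in neither mutant and miR-103-3p in KI but not in KO.

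**Figure D3:**
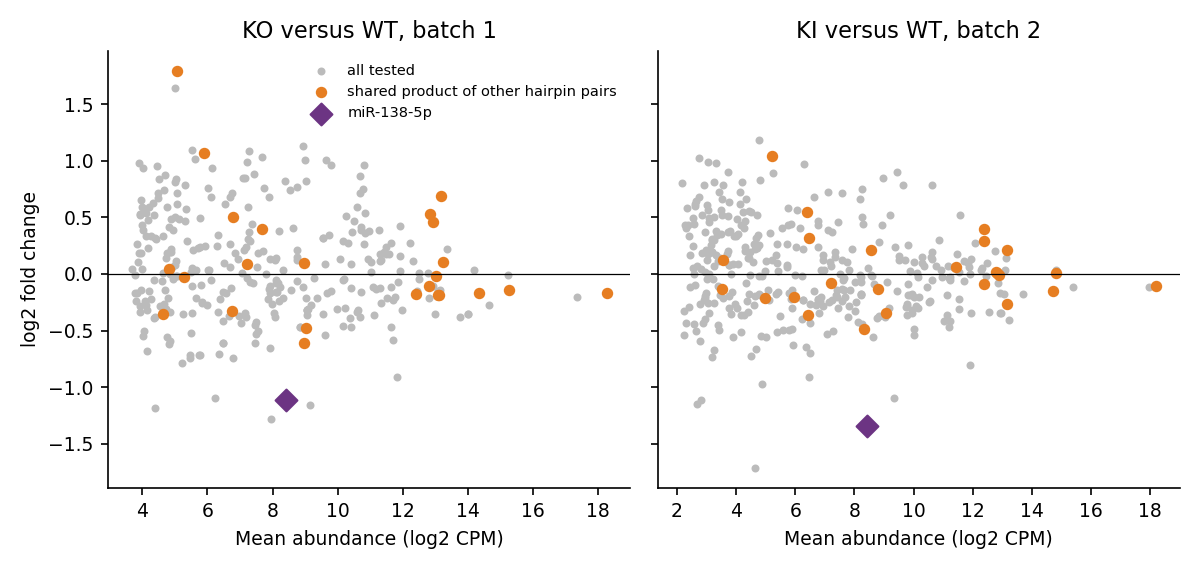
Log2 fold change of mutant over WT (vertical axis) against mean abundance in log2 CPM (horizontal axis), for KO in batch 1 (left) and KI in batch 2 (right). Grey points are all miRNAs tested, orange points the shared products of the other hairpin pairs, and the purple diamond miR-138-5p. At -1.11 and -1.34 it lies below every orange point, which its selection as lower in both mutants largely sets.

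Named examples of the group went both ways, and their calls held with library size only. miR-128-3p, a neuronal miRNA, averaged 602 CPM in WT of batch 1 and 433 CPM in KO, which is -0.47 on the log2 scale (SE 0.08, edgeR adjusted p 0.00183). In batch 2 it averaged 600 CPM in WT and 472 CPM in KI, or -0.35 on that scale (SE 0.08, edgeR adjusted p 0.00594). miR-26a-5p, which lies in introns of the Ctdsp phosphatase genes, rose in both, by 0.46 (SE 0.08) and 0.40 (SE 0.06). miR-196a-5p of the Hox clusters rose by 1.07 (SE 0.26) and 1.05 (SE 0.21). The strand named by hairpin was usually the rarer one, though for miR-129 it held 82.0% of the counts. It made up a median of 0.127% of the counts of both strands over 26 names with counts, and 7 of the 26 were above the 0.638% of miR-138. The larger hairpin of each name held a median share of 87.9% of these counts over 24 names, and 11 of the 24 were above the 89.5% of miR-138. Because the larger hairpin was taken, a majority or a tie is set in advance. Some shares rest on few counts, such as 4 for miR-218 and 7 for miR-365.

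Most miRNAs known for their abundance in neurons or brain were either too rare to test or not called. The list held 15 names other than miR-138, of which 5 are also in the group of hairpin pairs. In KO, 8 were tested, and 2 were lower, 0 higher and 6 not called, with a median log2 fold change of -0.21 (2 of 8 called, against 41.9% of all). In KI, 10 were tested, and 2 were lower, 2 higher and 6 not called, with a median of -0.03 (40.0% called, against 38% of all). Lower in KO were miR-128-3p and miR-135a-5p, the latter by -0.61 (SE 0.17, edgeR adjusted p 0.0165). Lower in KI were miR-128-3p and miR-219a-5p, the latter by -0.20 (SE 0.08, edgeR adjusted p 0.0603, and 0.251 with library size only), and higher were miR-218-5p at 0.55 (SE 0.17) and the neuron-specific miR-124-3p at 0.46 (SE 0.13). miR-9-5p, which acts in neural progenitors, was not called in either, with -0.21 in KO and -0.06 in KI.

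Marker lists are given beside miR-138-5p, to be read against all miRNAs tested, of which 20.7% were called lower and 21.3% higher in KO, and 19.9% lower and 18.1% higher in KI. Of 6 germ cell miRNAs of the miR-34 and miR-449 families, all 6 had counts in every group. Their summed level was 227190 to 277532 CPM in WT and 199445 to 256935 CPM in KO of batch 1, and 329107 to 358095 CPM in WT and 296270 to 338642 CPM in KI of batch 2. In KO 2 of the 6 were lower and 1 higher, and in KI 1 was lower, while with library size only 0 were lower and 2 higher in each. Of 5 stromal and endothelial miRNAs, 4 were tested, and 3 were higher in KO and 3 in KI, also with library size only. Their summed level was 739 to 1987 CPM in WT and 1845 to 3776 CPM in KO of batch 1, and 999 to 1738 CPM in WT and 1594 to 3373 CPM in KI of batch 2, with no marker at 0 in any group. Of 5 blood and immune miRNAs, 4 were tested, and 2 were higher in KO (3 with library size only) and 3 in KI. Their summed level was 4333 to 5564 CPM in WT (median 5186) and 4821 to 6404 CPM in KO (median 4982) of batch 1, and 2260 to 2915 CPM in WT and 2862 to 4611 CPM in KI of batch 2. Of the erythroid members, miR-144-3p was at 0 in both WT groups and in KI, while miR-451a was present in every group, at a mean of 59.6 CPM in WT and 47.8 CPM in KO of batch 1 and of 29.8 CPM in WT and 32.5 CPM in KI of batch 2. Each summed level is mostly that of 1 miRNA. In WT of batch 1 miR-34c-5p averaged 177566 CPM, miR-199a-3p 1211 CPM and miR-142a-3p 4851 CPM. The part of the cell types of these lists in the level of miR-138-5p was not tested.

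The 5 miRNAs whose levels followed miR-138-5p most closely were miR-140-5p, miR-741-3p, miR-743b-3p, miR-878-5p and miR-880-3p. Likeness was the lower of the Pearson r over the 10 libraries of batch 1 and the 12 libraries of batch 2, among 328 miRNAs tested in both. These values are descriptions across libraries that also differ in genotype and depth. For miR-140-5p, whose hairpin lies on chromosome 8 at 107551249 to 107551270 for the 5p product, r was 0.954 in batch 1 and 0.983 in batch 2. With the group means removed it was 0.814 and 0.755. miR-140-5p is best known from cartilage, and its log2 fold change was -1.28 (SE 0.14) in KO and -0.91 (SE 0.09) in KI.

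The other 4 lie together on the X chromosome, between 66777266 and 66801575, in a cluster of miRNAs known for expression in the testis. miR-741-3p had an r of 0.945 and 0.964, which was 0.742 and 0.237 with the group means removed. For miR-878-5p the values were 0.919 and 0.918, and 0.620 and 0.0623. miR-743b-3p and miR-880-3p had 0.398 and 0.409 in batch 2 with the group means removed, so that all 4 were below miR-140-5p there. Mutant libraries lay below WT without overlap in both batches for all 5, against 11.4% of all miRNAs in KO and 9.04% in KI, but the 5 were chosen for following miR-138-5p across the genotypes, which largely sets this outcome. The X-linked miRNAs were lower by smaller amounts, with log2 fold changes from -0.58 for miR-880-3p to -0.26 for miR-743b-3p in KO and from -0.41 for miR-880-3p to -0.30 for miR-878-5p in KI. With library size only, the KO values of miR-743b-3p and miR-878-5p were -0.15 and -0.16, and neither was called (edgeR adjusted p 0.133 and 0.136).

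**Figure D4:**
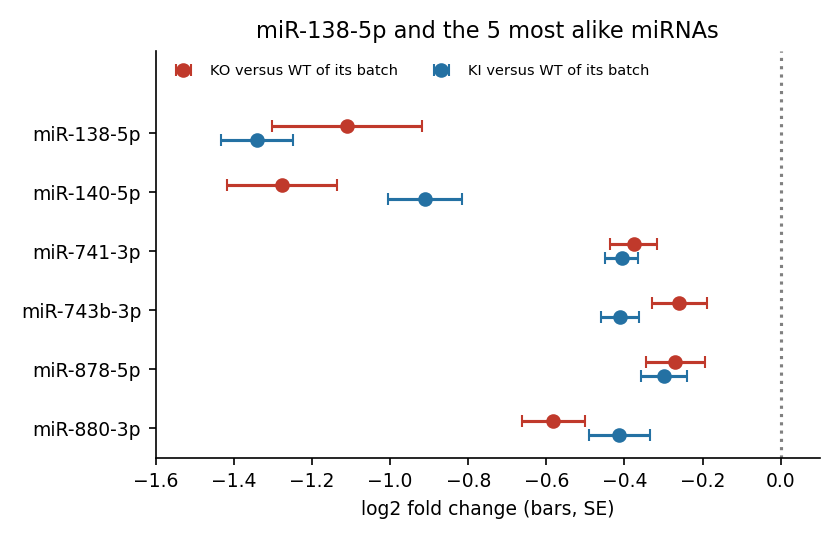
Log2 fold change of mutant over WT (horizontal axis, bars are SE) for miR-138-5p and the 5 miRNAs most like it, in KO (red) and KI (blue). miR-138-5p (-1.11 and -1.34) and miR-140-5p (-1.28 and -0.91) lie apart from the 4 X-linked miRNAs, which lie between -0.58 and -0.26.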

How the data were processed

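The deposited table holds counts, as whole reads per mature miRNA name and library. Per the file headers, the labels and the paper's methods, the authors used cutadapt 3.4 for trimming, aligned to GRCm38 with Bowtie2 2.4.2 in local mode with several alignments per read, and counted by strand with featureCounts (Subread 2.0.1). Names with 2 loci may hold reads counted at both. The columns of all 22 samples were used, and 0 columns were left out. The transcript of the targeted gene was not analysed here.

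KO and KI were each compared with WT of their batch, and WT between batches, by the quasi-likelihood test of edgeR 4.0.16 (R 4.3.3, TMM, filterByExpr, Benjamini-Hochberg adjusted p under 0.1, as in the study) over all miRNAs that passed the filter. DESeq2 1.42.0, library size only, no filter, a replicate block and leaving out each library were alternatives. miR-138-5p passed the filter in each comparison, and the 3p products are given as counts with exact Poisson or binomial 95% intervals. The named miRNAs are the 3 members, the 5 most alike on log2(CPM + 1), the neighbours of each locus, the hairpin pairs and a neuronal list. Members and lists were chosen with earlier results of these data known. The fits were also run on simulated counts with as many rises as falls and a common spread for all miRNAs, a simpler setting than these data. Python 3.11.15, scipy 1.17.1, pandas 2.3.3 and numpy 2.4.6 were used.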

Additional observations from a re-analysis of the deposited data

Results flagged for a closer look

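miR-138-1-3p was high in WT replicate 3 of batch 1, at 4.32 CPM, while the other 4 WT samples of batch 1 had 0 to 1.04 CPM. The distance to the nearest of them was 0.760 of the whole range. The value rests on 4 counts. It was the only 1 found among 10 combinations of a member and a group. Chance flags about 1 in 20 where values are spread normally, which counts this low are not.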

How the results depend on the processing

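miR-138-5p stayed lower in both mutants under every alternative run, with log2 fold changes of -1.17 to -0.996 in KO and -1.35 to -1.26 in KI, and of -1.25 to -0.99 and -1.42 to -1.28 with 1 library left out. Its difference between the WT groups was 0.11 (edgeR adjusted p 0.376) with library size only, and it was called under the other alternatives, at up to 0.54, and at 0.39 to 0.53 with 1 library left out. With 1 library left out, 112 to 153 miRNAs were called in KO, 127 to 173 in KI and 203 to 218 between the WT groups. Same-numbered samples had correlations of deviations of -0.20 to 0.30 in KO and WT and -0.12 to 0.56 in KI and WT. Between the WT groups they were -0.02 to 0.22. The numbers were not taken to pair samples, but samples of different numbers were not correlated for comparison, so a pairing is not settled. A block for the replicate number gave 124 calls in KO, 165 in KI and 221 between the WT groups, and miR-138-5p was at -1.14, -1.35 and 0.48. Its SE with the block was 0.119 in KO, 0.0954 in KI and 0.0950 between the WT groups. Without the block it was 0.192, 0.0926 and 0.101. The WT difference in the percentage of 3p counts had an exact permutation p of 0.00794 to 0.0571 with 1 library left out. With counts divided by loci the exact permutation p was 0.0260. That division changes the percentage of every library by nearly the same factor, so it could hardly change the p. Both alternatives were added after seeing the data. The depth limits the 3p products, whose mutant levels rest on 0 to 26 counts in a group.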
